A study of Homo sapiens with 114 samples.

Results

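Interferon-induced genes were followed through 26 treatments of HK-2 cells, an immortalized human line of renal proximal tubular epithelium. The group was a list of 33 genes that type I, II or III interferons are known to induce, taken as given, by name. The arrays measured 32 of them, among 19775 genes in all, and STAT2 was not analysed here. The study exposed the cells to 9 compounds in search of expression signatures of kidney toxicity. It used Affymetrix arrays, which read total RNA as probe intensities, here on a log2 scale after the GCRMA background correction.

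The 114 arrays formed 38 groups of 3 biological replicates, with 26 treated groups and 12 groups given vehicle. Compounds appear under the labels' abbreviations. A high and a low dose of Aa, of Nnm and of Kbr lasted 24 or 48 h, and those of Ota 24 or 72 h. The single doses of CsA, of Fk, of Ra, of CdCl and of Di lasted 12 or 48 h. The same controls served Nnm and Kbr, others served Fk and Ra, and others CdCl and Di, while CsA, Aa and Ota each had their own. These 6 sets of compounds with their controls are called families. The labels gave no concentrations. All groups were the same line, seeded 24 h before treatment and treated near confluence in medium with EGF, hydrocortisone, insulin, transferrin and selenite, and the labels marked the CsA arrays as coming from lab 3. Nothing in the labels said whether replicates came from separate vials or days, so the p-values measure the spread between these cultures. Doses, times and families differed between compounds, so each treated group was set against the controls of its own family and time.

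Interferons are cytokines that cells release on sensing foreign or misplaced nucleic acid. Type I and III interferons act through receptor-bound JAK kinases on a complex that contains STAT2 and IRF9, which binds a promoter element called the ISRE. Type II interferon acts through an element called GAS. The induced genes include sensors of viral RNA, enzymes that degrade or modify RNA, proteins that block virus entry or release, the ubiquitin-like modifier ISG15 with its ligases, and feedback regulators. In tubular epithelium they are known from viral infection and from inflammation of the kidney, and many are also expressed at some level in cells that have met no interferon.

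The promoters show what the group shares beyond its name. RefSeq (GRCh38.p14) gave promoter windows of 250 bases before to 50 bases after the start for 26 of the 32 measured members, 33 windows in all. The ISRE letters searched were GAAA, then any 2 bases, then GAAA, on both strands. They were found in 21 of the 26 members. Counted by window, 25 of the members' 33 windows held them, against 3.57% of the 35116 windows of all genes. The GAS letters TTCNNNGAA, which read the same on both strands, were found in 10 of the 26 members. Counted by window, 11 of the members' 33 windows held them, against 7.66% of all windows. The 2 patterns can overlap, as they do at IFITM1. A match is only a run of letters and was not tested as a binding site. For members that the results turn on, 1 site each is shown 5′ to 3′ with the ISRE letters in capitals.
ISG15, chr1:1013380-1013409, plus strand: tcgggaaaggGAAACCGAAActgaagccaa
IFIT1, chr10:89392510-89392539, minus strand: gaaacctaggGAAACCGAAAggggaaagtg
OAS3, chr12:112938321-112938350, plus strand: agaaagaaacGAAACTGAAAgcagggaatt
HERC5, chr4:88457035-88457064, minus strand: agctccagtgGAAAACGAAAcataatgttt
DDX60, chr4:168318786-168318815, minus strand: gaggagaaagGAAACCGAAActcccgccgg
RSAD2, chr2:6877622-6877651, minus strand: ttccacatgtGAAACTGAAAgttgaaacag
IFITM1, chr11:314024-314053, plus strand: acacttctgaGAAACTGAAAcgacagggga
IFI6, chr1:27672329-27672358, minus strand: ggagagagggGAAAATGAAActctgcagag
MX1, chr21:41420559-41420588, plus strand: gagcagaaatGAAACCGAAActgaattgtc
IFI44L, chr1:78620365-78620394, plus strand: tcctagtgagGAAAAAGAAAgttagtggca
PARP14, chr3:122680800-122680829, plus strand: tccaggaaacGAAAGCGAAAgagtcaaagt
PARP9 and DTX3L, chr3:122564322-122564351, plus strand: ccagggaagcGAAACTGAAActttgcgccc

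IFI44L carries the same 30 letters at a second position, chr1:78620274-78620303, and the site of PARP9 and DTX3L lies in the windows of both genes, which run in opposite directions. IRF1, IRF9, IFI35, OAS1 and HERC6 had windows without the ISRE letters, and the first 3 are shown with the GAS letters in capitals.
IRF1, chr5:132490879-132490907, minus strand: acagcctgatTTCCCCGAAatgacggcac
IRF9, chr14:24161192-24161220, plus strand: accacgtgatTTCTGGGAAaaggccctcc
IFI35, chr17:43006752-43006780, plus strand: aggcagggatTTCACGGAAatgaaagtgg

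In Aa high 24 h, described further on, 11 of 20 tested members with the ISRE letters, MX1 included, and 3 of 5 without rose. Of all tested genes 26% rose there. In Nnm high 48 h 9 of 19 with and 2 of 5 without rose (15.4% of all genes). In Kbr high 48 h 12 of 19 with and 2 of 5 without fell (28.9% of all genes). In Ota high 72 h 10 of 19 with and 3 of 5 without fell (37.9% of all genes). No difference between members with and without the letters was tested.

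The line was checked against markers of its type. KRT8, KRT18, KRT19, CDH2 and PAX8 were expressed, while AQP1, ANPEP, LRP2, CUBN and PAX2, which mark the proximal tubule or its precursors, were below a log2 intensity of 4 on every array. Such values are called background here. Of 6 immune markers measured 5 were at background on every array and ITGAM passed that level on single arrays only, reaching 5.53. Of 5 fibroblast markers measured COL1A1, DCN and LUM were above it on all 114 arrays, with medians of 7.94, 11.29 and 9.50. PDGFRB was at background throughout and COL3A1 passed that level on 1 array. The upper quartile over the 19775 genes, a measure of array brightness, was 8.59 on the median array and ranged from 7.80 to 8.73. Replicate 2 of Ra 48 h gave the 7.80, against 8.65 and 8.57 on the other Ra 48 h arrays, and the Ota high arrays ranged from 7.86 to 8.17 at 24 h and from 8.30 to 8.39 at 72 h. RNA was taken from whole cultures, so less RNA per cell and fewer cells that carry it cannot be told apart.

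Most of the group was already expressed without treatment. Of the 32 measured members 28 had a mean log2 intensity of at least 4 over the 36 control arrays. IFI27, MX2 and OAS2 stayed at background on all 114 arrays, and MX1, a GTPase that blocks viral replication, did so on every control array, with values from 2.52 to 3.50. ISG15, the modifier itself, read 9.52 at the lowest, 10.31 at the median and 11.51 at the highest control array. IFIT3, which binds foreign RNA together with IFIT1, read 8.49, 9.29 and 10.20 in the same order. USP18, which removes ISG15 from proteins and restrains the receptor, lay near the background level with 2.48, 3.90 and 5.15.

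**Figure D1:**
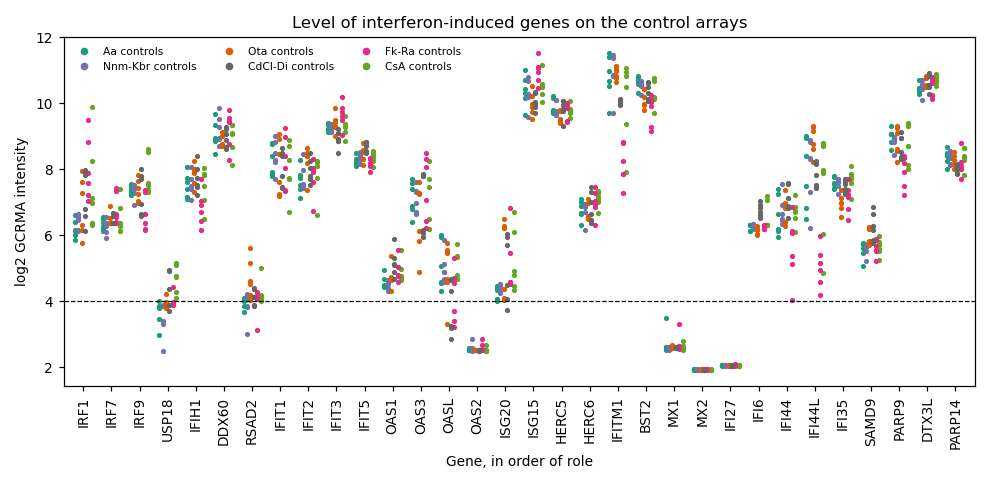
Each point is the log2 GCRMA intensity of 1 gene (x axis, in order of role) on 1 of the 36 control arrays, coloured by family, and the dashed line marks the background level of 4. IFI27, MX1, MX2 and OAS2 lie below the line on every control array, and IFITM1, IFI44L and IRF1 spread widely between families.

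The controls of different families did not start from the same level. IFITM1, a membrane protein that hinders virus entry, had control means between 7.80 and 11.21 over the 12 control groups. For IFI44L, an interferon-induced protein that restrains signalling, they ran from 5.04 to 9.25, and for the transcription factor IRF1 from 6.05 to 8.75. ISG15 varied less, with means from 9.74 to 11.23. Family cannot be told apart from when and where its cultures were grown, so no level is compared between families.

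The interferons themselves were not detected. Of 20 ligand genes listed 18 were measured, and 17 of them, IFNB1 and the IFNL genes included, were at background on all 114 arrays. IFNA5 passed log2 4 on 2 arrays with a highest value of 5.57. The receptor and signalling genes measured numbered 11. IFNAR1, IFNAR2, IFNGR1, IFNGR2, IL10RB, JAK1, TYK2 and STAT3 were above background on every array, whereas JAK2 was at background on all of them and IFNLR1, the specific chain of the type III receptor, exceeded it on 8. The chemokines CXCL9, CXCL10 and CXCL11, among the most inducible targets of interferon gamma, were at background throughout, as were IDO1, CIITA, GBP4, GBP5 and CD274.

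In the treated groups the number of members called ran from 0 to 22. A member was called higher or lower when its limma adjusted p, over all genes tested, was under 0.05. In every comparison 28 members could be tested, and in the Aa family MX1 made 29. MX1 could be tested there only because of its values on the Aa high arrays, so its calls are no separate support. Changes are log2 differences of treated minus control means ± standard error, from 3 arrays against 3, and the main tests did not pair replicates. Counts are set beside the percent of all tested genes called in the same direction, since many treatments changed a large share of all genes. Counts from most alternative fits, with an array left out or at an unadjusted p lack that percent. They show how far a count moved and cannot be set against all genes.

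**Figure D2:**
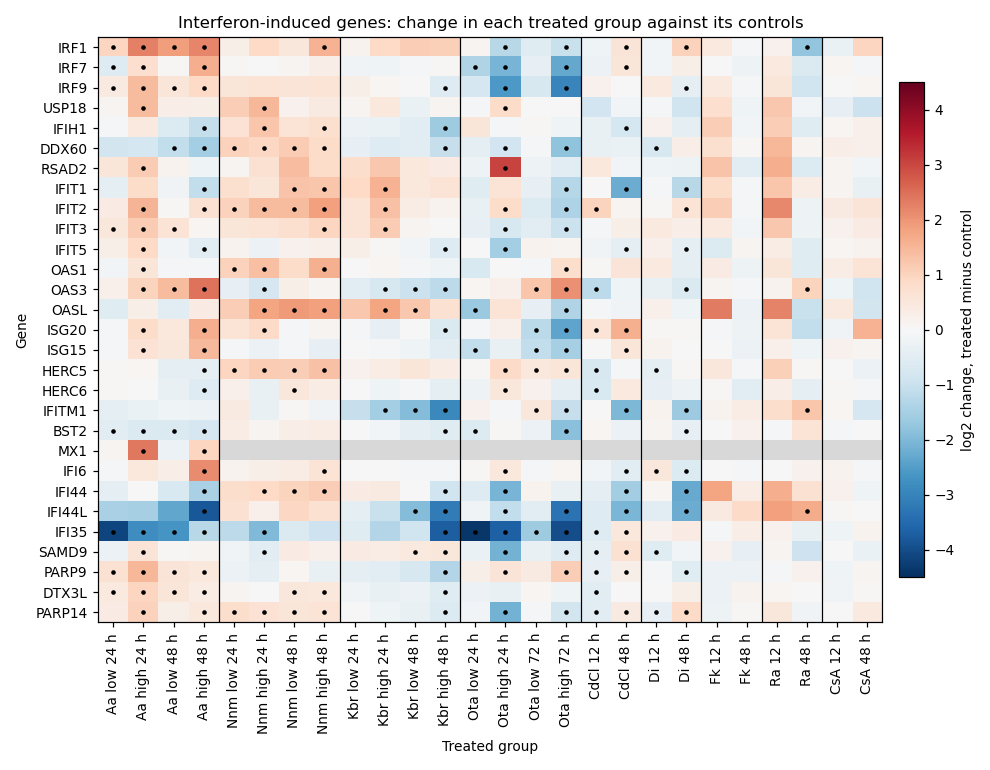
Each cell is the log2 change of 1 gene (rows, by role) in 1 treated group against its controls (columns), red for higher and blue for lower, and a dot marks a limma adjusted p under 0.05. Grey marks comparisons where MX1 was not tested. IFI35 is deep blue in most Aa and Ota columns while the Nnm columns are mostly red.

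Aa at the high dose raised most members at 24 h, among them IRF1, IRF9 and PARP9, and at 48 h raised and lowered similar numbers, with OAS3 and IFI6 high and IFI44L low. At 24 h it raised 17 of 29 members, MX1 included, and lowered 2, against 26% and 23.9% of all tested genes. The members' median change was 0.76, against 0.01 over all genes. At 48 h it raised 12 and lowered 10 (29.8% and 34.5% of all genes), with a median of 0.14. The low dose raised 5 and lowered 3 at 24 h (10.2% and 13% of all genes), and raised 6 and lowered 3 at 48 h (17.7% and 19.3%). With the replicate number as a block the lower counts were 5, 6 and 7 in place of 2, 3 and 3 for high 24 h, low 24 h and low 48 h. In low 24 h the higher count was 2 without control 1 or treated 1, 3 without control 2 and 1 without treated 3, and the lower count was 1 without control 1 or treated 1. In low 48 h the lower count was 5 without treated 2 or control 3. The 3′ minus 5′ difference of the ACTB control probe sets was 1.22, 1.69 and 1.14 on Aa high 48 h arrays, against 0.87, 1.15 and 0.77 on their controls. Its part in these counts was not tested.

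Nnm raised members at both doses, among them IFIT2, OASL, HERC5 and PARP14, and lowered few. The high dose raised 10 and lowered 3 of 28 at 24 h (17.6% and 18.4% of all genes), and raised 13 and lowered 0 at 48 h (15.4% and 12.3%). No limma test without adjustment gave a lower member at p under 0.05 in that comparison either. The low dose raised 5 at 24 h (9.39%) and 9 at 48 h (8.39%), and lowered 0 at either time (9.13% and 5.73% of all genes), also without adjustment. Median changes of the members were 0.56 and 0.47 at 24 h for the high and low dose, and 0.61 and 0.52 at 48 h. With the replicate block the low dose raised 11 and 14. At 48 h the high dose raised 6 without control 1, 7 without treated 1 and 8 without control 3, and lowered 1 without treated 2. At 24 h it lowered 0 without treated 1 and 5 without treated 2. The low dose raised 3 at 24 h without control 1, control 3 or treated 3 and 8 without treated 2, and at 48 h it raised 4 without control 1 or 3 and 5 without treated 3. With only the 6 arrays compared in the fit, the higher counts were 3 in place of 13 and 2 in place of 9 at 48 h, and 3 in place of 10 for the high dose at 24 h, where 0 in place of 3 were lower.

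Kbr, which shared its controls with Nnm, lowered IFI35, IFI44L, IFITM1 and other members at the high dose for 48 h. There 14 of 28 fell and 1 rose, against 28.9% and 22.2% of all tested genes, and the median change of the members was −0.51, against −0.07. At 24 h the high dose raised 4 and lowered 2 (8.17% and 13.4%). The low dose raised 2 and lowered 3 at 48 h (15.2% and 14.3%), while at 24 h limma called 0 members (0.671% of all genes higher and 0.689% lower), with 5 at an unadjusted p under 0.05. With the replicate block the calls in low 24 h were 2 higher and 1 lower, and the lower counts were 5 in place of 2 in high 24 h and 6 in place of 3 in low 48 h, where quantile normalization gave 5. The block gave 2 higher in high 48 h. In high 24 h the lower count was 1 without any 1 control or without treated 3. In high 48 h the higher count was 0 without control 1 or treated 2 and 2 without treated 1. In low 48 h it was 0 without control 1, treated 2 or treated 3, and 1 without treated 1 or control 3. In Kbr high 48 h all 3 tested fibroblast-type genes, COL1A1, DCN and LUM, fell too, and the log2 of their list's summed intensity was 10.16 to 10.51 on treated arrays against 12.18 to 12.29 on controls. All 3 fell in Kbr high 24 h, where that sum was 11.35 to 11.79 on treated arrays against 12.28 to 12.75 on controls, and in Kbr low 48 h, where it was 10.36 to 10.90 on treated arrays. The part of this in the results was not tested.

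Ota at the high dose lowered IFI35, IFI44L, IRF9, ISG20 and other members at 72 h, and at 24 h raised RSAD2. At 72 h 16 of 28 fell and 4 rose, against 37.9% and 25.3% of all genes, with medians of −0.90 for the members and −0.15 for all genes. At 24 h it lowered 11 and raised 7 (43.6% and 21.4%), with medians of −0.06 and −0.29, and after quantile normalization 11 fell and 9 rose, when 3235 of all genes were higher and 4127 lower in place of 2384 and 4852 and their median was −0.07. The low dose lowered 5 at 24 h and raised 0 (9.99% and 3.72%), with 1 higher member at an unadjusted p under 0.05 and 1 called after quantile normalization. At 72 h it lowered 3 and raised 3 (7.02% and 9.01%). Without control 1, treated 1 or treated 2 the low dose lowered 3 members at 24 h. On the Ota high 24 h arrays the log2 summed intensity of the immune markers was 5.45 to 6.23, against 5.02 to 5.04 on controls, with PTPRC and 4 others at background. The 3′ minus 5′ difference of the ACTB control probe sets was 1.66 to 2.30 on Ota high 72 h arrays and 1.16 to 1.51 on their controls. The part of either in these counts was not tested.

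CdCl and Di both lowered IFITM1, IFI44 and IFI44L at 48 h. CdCl lowered 8 and raised 2 members at 12 h (34.3% and 14.5% of all genes), and raised 8 and lowered 7 at 48 h (22.9% and 23.5%). Di lowered 4 and raised 1 at 12 h (8.23% and 3.61%), and lowered 10 and raised 3 at 48 h (25.9% and 21.4%). On the Di 48 h arrays the log2 summed intensity of the fibroblast-type genes was 10.60 to 10.71, against 11.42 to 11.54 on controls, and 2 of 3 tested fell. Its part in these counts was not tested. The Di 12 h counts changed whichever array was left out. Leaving out each array gave 0 higher without treated 1, treated 3, control 2 or control 3, and 2 without treated 2 or control 1. It gave 0 lower without treated 2, control 1 or control 3, 1 without treated 1 or control 2, and 2 without treated 3. After quantile normalization 3 were higher and 2 lower in Di 12 h, and 511 of all genes were higher and 694 lower in place of 399 and 909.

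CsA, Fk and, at 12 h, Ra gave no member past the threshold. In CsA 12 h limma called 0 members and 0% of all genes, and no member had an unadjusted p under 0.05. In CsA 48 h it called 0 members (0.00925% of all genes higher, 0% lower) with 6 under that unadjusted p, and the replicate block called 1 higher and 1 lower. Fk gave 0 calls at 12 h (0.00918% higher, 0% lower) with 7 members at an unadjusted p under 0.05, all of them higher, and 0 at 48 h (0% of all genes) with none. Ra gave 0 at 12 h (0.0367% higher, 0% lower) with 12 members at an unadjusted p under 0.05, all higher. At 48 h Ra raised 3 and lowered 1 (1.87% and 7.46% of all genes). Those 4 calls were few and fragile. Higher calls numbered 1 without control 1, treated 1 or treated 2 and 0 without control 2 or treated 3. Lower calls numbered 0 without control 1, control 2 or treated 2 and 3 without control 3 or treated 1. Treated 2 was the dim array, and quantile normalization moved the median of all genes in Ra 48 h to 0.01, against −0.19 as deposited, with 877 higher and 857 lower in place of 204 and 812, and 4 members higher and 1 lower.

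**Figure D3:**
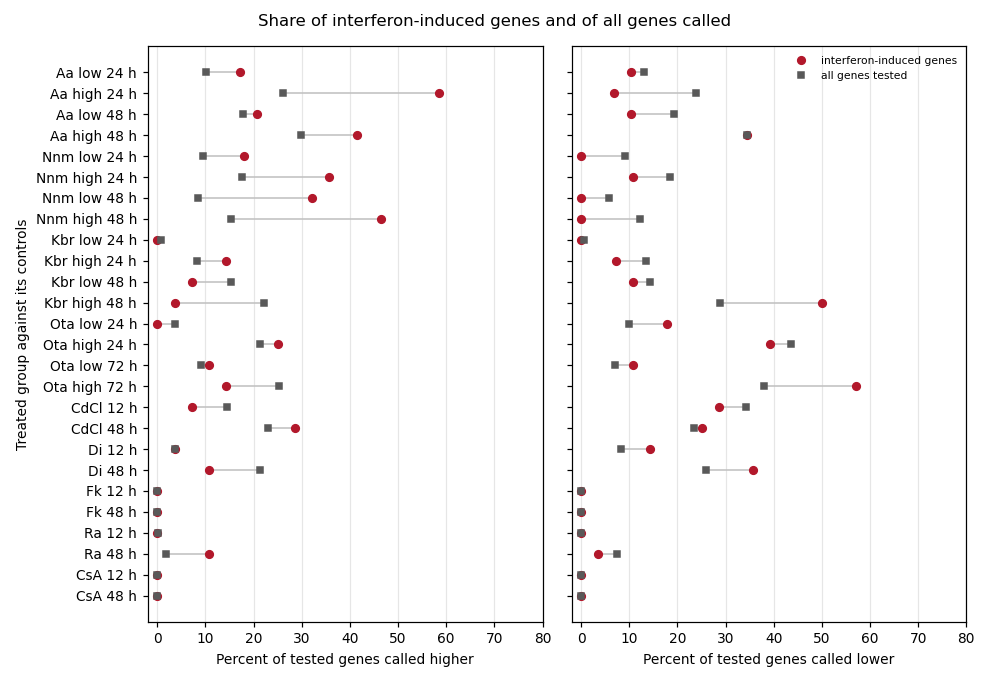
For each treated group (rows) the red point gives the percent of tested interferon-induced genes called higher (left) or lower (right) by limma, and the grey square the percent of all tested genes. In Aa high 24 h and Nnm high 48 h the red points lie furthest to the right of the squares on the left side, at 58.6% and 46.4%, and in Kbr high 48 h and Ota high 72 h on the right side, at 50% and 57.1%.

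The regulators were the first members examined by role. IRF1, a transcription factor that both interferon types induce, rose in all 4 Aa groups. It read 8.87, 8.42 and 8.45 on the Aa high 24 h arrays, against 6.39, 6.00 and 6.60 on controls, a rise of 2.25 ± 0.27 (adjusted p = 7.43e-06). At 48 h it rose by 2.20 ± 0.27 (adjusted p = 3.97e-06) at the high dose and by 1.89 ± 0.27 (adjusted p = 0.000102) at the low dose. In both the treated arrays lay above all controls. With Di for 48 h it read 8.96, 8.99 and 8.96, against 7.95, 7.97 and 7.83, a rise of 1.05 ± 0.15 (adjusted p = 3.24e-05), and CdCl 48 h raised it by 0.59 ± 0.15 (adjusted p = 0.00426). Ota at the high dose lowered it to 4.70, 4.72 and 5.07 at 24 h, against 6.15, 6.31 and 5.78, a change of −1.25 ± 0.31 (adjusted p = 0.00237). This call and that in Ota high 72 h (fell by 1.00 ± 0.31 (adjusted p = 0.0108)) were lost when all probe sets of the gene were averaged (adjusted p = 0.22 and 0.523), and the later one also without control 3 (0.0535) or treated 1 (0.0726).

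The IRF1 calls in Nnm high and Ra at 48 h were weak. In Nnm high 48 h the arrays read 8.71, 6.54 and 8.24, against 6.57, 6.14 and 6.15, and the groups overlapped. That call (adjusted p = 0.0344) was lost with no filter on low values (0.0714), with only the 6 arrays compared (0.122), without control array 1 (0.0528), without treated array 1 (0.203), without control array 2 (0.0859), without control array 3 (0.0909) and without treated array 3 (0.133). In Ra 48 h IRF1 read 7.11, 6.22 and 7.55, against 9.50, 8.84 and 7.90, a change of −1.79 ± 0.46 (adjusted p = 0.0284), and the call was lost with no filter on low values (0.0695), with only the 6 arrays compared (0.247), without control array 1 (0.134), without control array 2 (0.108) and without treated array 2 (0.0877).

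IRF7, which amplifies type I interferon production, and IRF9, the DNA-binding subunit of the type I interferon complex, rose with Aa high and fell with Ota high. With Aa high for 48 h IRF7 read 7.71, 7.60 and 8.24, against 6.19, 6.13 and 6.37, a rise of 1.62 ± 0.18 (adjusted p = 2.11e-06). IRF9 read 8.79, 8.87 and 8.90 with Aa high for 24 h, against 7.23, 7.54 and 7.48, a rise of 1.43 ± 0.11 (adjusted p = 2.36e-07). In both the groups did not overlap. Ota high lowered IRF7 to 3.02, 5.25 and 4.67 at 72 h, against 6.53, 6.89 and 6.37, a change of −2.29 ± 0.39 (adjusted p = 9.53e-05), and fell by 2.10 ± 0.39 (adjusted p = 0.000206) at 24 h. It lowered IRF9 to 4.88, 3.83 and 5.30 at 72 h, against 7.63, 7.43 and 7.84, a change of −2.97 ± 0.31 (adjusted p = 7.56e-07). At 24 h IRF9 fell by 2.57 ± 0.31 (adjusted p = 3.2e-06). With Aa low for 24 h IRF7 fell by 0.58 ± 0.18 (adjusted p = 0.034). IRF7 also fell with Ota low for 24 h, a change of −1.36 ± 0.39 (adjusted p = 0.029), a call lost with quantile normalization (0.0659), with no filter on low values (0.0771), without control array 1 (0.0775), without control array 2 (0.0727), without control array 3 (0.0745), without treated array 1 (0.0857) and without treated array 2 (0.102).

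USP18 rose out of background with Aa high and with Nnm high for 24 h. It read 5.64, 5.45 and 4.49 with Aa high for 24 h, against 3.45, 4.01 and 3.82, a rise of 1.43 ± 0.31 (adjusted p = 0.00147). With Nnm high for 24 h it read 4.76, 3.94 and 5.57, against 2.48, 3.86 and 3.41, a rise of 1.51 ± 0.43 (adjusted p = 0.00959). The control means of both lay below 4. The Nnm call was lost with only the 6 arrays compared (0.106), without control array 1 (0.0698) and without treated array 3 (0.0825).

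Of the sensors and their relatives, IFIH1 (the double-stranded RNA sensor MDA5) and the related helicase DDX60 rose with Nnm and fell with Kbr high for 48 h. IFIH1 read 5.54, 6.58 and 6.05 with Kbr high for 48 h, against 7.39, 8.07 and 7.48, a change of −1.59 ± 0.27 (adjusted p = 3.9e-05). With Nnm high for 24 h it read 8.77, 8.00 and 9.20, against 7.43, 7.69 and 7.07, a rise of 1.26 ± 0.27 (adjusted p = 0.00143) that was lost with only the 6 arrays compared (0.0737). With Aa high for 48 h it fell by 1.06 ± 0.25 (adjusted p = 0.00158). DDX60 rose in all 4 Nnm groups, among them Nnm low 24 h with 9.88, 10.16 and 10.49, against 8.95, 9.51 and 8.93, a rise of 1.05 ± 0.23 (adjusted p = 0.00418). In Nnm low 48 h it rose by 1.16 ± 0.23 (adjusted p = 0.00255), a call lost with only the 6 arrays compared (0.0645). It fell by 1.05 ± 0.23 (adjusted p = 0.00069) in Kbr high 48 h and fell by 1.54 ± 0.35 (adjusted p = 0.00116) in Aa high 48 h. In Ota high 72 h it read 6.97, 6.93 and 6.89, against 8.71, 8.76 and 8.74, a change of −1.80 ± 0.16 (adjusted p = 1.2e-07) with little spread in either group. A fall, with a change of −1.11 ± 0.35 (adjusted p = 0.0205) in Aa low 48 h was lost without treated array 1 (0.0657), without control array 2 (0.0994) and without treated array 3 (0.0822).

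RSAD2 encodes viperin, an enzyme that makes a chain-terminating nucleotide. With Ota high for 24 h it read 7.58, 7.90 and 7.57, against 4.19, 4.60 and 5.15, a rise of 3.03 ± 0.38 (adjusted p = 4.59e-06) and the largest rise of any member in the 26 comparisons. The 3 treated arrays lay far above all controls, although their upper quartiles were lower. Under Ota high for 72 h its change was −0.48 ± 0.38 and it was not called. Aa high for 24 h raised it to 4.75, 6.00 and 4.47, against 3.68, 4.03 and 4.11, a rise of 1.13 ± 0.33 (adjusted p = 0.00914) from background.

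Other genes of the sensing pathway, from a list of sensors and adaptors, gave 10 or 9 testable members of 14. Aa high raised DHX58, a regulator of RNA sensing, by 2.26 ± 0.11 (adjusted p = 4.33e-09) at 24 h and 2.98 ± 0.11 (adjusted p = 8.98e-11) at 48 h, from background. DHX58 exceeded log2 4 on only 12 of all 114 arrays, and its Aa control means were 2.91 and 3.09. It may have passed the filter in the Aa family only through the Aa high arrays, so these calls are no separate support. TLR3, the endosomal sensor of double-stranded RNA, rose with Nnm high by 1.76 ± 0.34 (adjusted p = 0.000702) at 24 h and fell by 2.75 ± 0.34 (adjusted p = 4.71e-06) with Aa high for 48 h, to background. MAVS, the mitochondrial adaptor of the RNA sensors, fell by 5.12 ± 0.33 (adjusted p = 3.84e-09) with Ota high for 24 h and fell by 2.92 ± 0.33 (adjusted p = 1.87e-06) for 72 h. CGAS, the cytosolic DNA sensor, rose by 2.39 ± 0.37 (adjusted p = 1.22e-05) with Kbr high for 48 h. TRIM25, which ubiquitinates RIG-I, rose by 1.69 ± 0.12 (adjusted p = 1.79e-08) with Di and 1.61 ± 0.12 (adjusted p = 4.08e-08) with CdCl for 48 h. Of this list 5 rose and 2 fell in Di 48 h (21.4% and 25.9% of all genes). In Kbr high 48 h 4 rose and 2 fell (22.2% and 28.9%), and in Ota high 24 h 1 rose and 5 fell (21.4% and 43.6%).

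The IFIT genes, whose proteins bind foreign RNA, lie close together on chromosome 10, and IFIT2 was the one called higher most often, in 10 of 26 comparisons. IFIT2 read 10.13, 8.95 and 9.89 with Nnm high for 48 h, against 7.42, 8.47 and 7.51, a rise of 1.86 ± 0.31 (adjusted p = 0.000322). The treated arrays lay above all controls, but the call was lost with only the 6 arrays compared (0.0584). With Aa high for 24 h it read 9.08, 9.36 and 8.54, against 7.13, 7.83 and 7.41, a rise of 1.54 ± 0.24 (adjusted p = 7.47e-05). With Kbr high for 24 h it read 8.66, 9.54 and 8.78, against 7.56, 7.99 and 7.47, a rise of 1.32 ± 0.31 (adjusted p = 0.00438). Nnm high for 24 h raised it by 1.41 ± 0.31 (adjusted p = 0.00197), and CdCl for 12 h by 0.99 ± 0.17 (adjusted p = 0.000257). Its single fall was in Ota high 72 h, to 7.13, 6.94 and 7.21, against 8.41, 8.41 and 8.64, a change of −1.39 ± 0.22 (adjusted p = 5.02e-05). In Nnm low 48 h it rose by 1.42 ± 0.31 (adjusted p = 0.00459), lost with only the 6 arrays compared (0.0539). In Nnm low 24 h it rose by 1.03 ± 0.31 (adjusted p = 0.027), lost with no filter on low values (0.054), without control array 1 (0.079), without treated array 1 (0.0584), without control array 3 (0.114) and without treated array 3 (0.13).

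IFIT1, the partner that recognises RNA lacking a cap methyl group, moved in both directions. It read 9.67, 10.62 and 10.08 with Kbr high for 24 h, against 8.22, 9.01 and 8.48, a rise of 1.55 ± 0.36 (adjusted p = 0.00332). CdCl for 48 h lowered it to 6.43, 3.80 and 5.82, against 7.46, 7.81 and 7.44, a change of −2.22 ± 0.47 (adjusted p = 0.00118) in which treated array 2 fell to background. It fell by 1.30 ± 0.27 (adjusted p = 0.000544) with Ota high for 72 h. The remaining calls past 2-fold were each lost in some alternative fits or with some arrays left out. The rise of 1.26 ± 0.36 (adjusted p = 0.0123) in Nnm high 48 h was lost with only the 6 arrays compared (0.0633), without control array 1 (0.0754) and without treated array 1 (0.0524). The rise of 1.30 ± 0.36 (adjusted p = 0.0173) in Nnm low 48 h was lost with only the 6 arrays compared (0.0515), without control array 1 (0.104), without treated array 1 (0.0578), without control array 3 (0.0519) and without treated array 3 (0.0817). The fall in Aa high 48 h, a change of −1.10 ± 0.37 (adjusted p = 0.0159), was lost without treated array 1 (0.0931) and without control array 2 (0.0892). The fall in Di 48 h, a change of −1.26 ± 0.47 (adjusted p = 0.0377), was lost with no filter on low values (0.0877), without treated array 2 (0.147), without treated array 3 (0.0569), without control array 1 (0.0661), without control array 2 (0.106) and without control array 3 (0.0634).

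IFIT3 and IFIT5 gave fewer large changes. IFIT3 read 10.52, 10.40 and 10.27 with Aa high for 24 h, against 9.14, 9.22 and 9.33, a rise of 1.16 ± 0.14 (adjusted p = 9.69e-06). With Kbr high for 24 h it read 10.39, 10.49 and 10.42, against 9.29, 9.22 and 9.37, a rise of 1.14 ± 0.31 (adjusted p = 0.011). In both the groups were well apart. IFIT5 fell with Ota high for 24 h to 7.35, 6.15 and 7.33, against 8.80, 8.14 and 8.52, a change of −1.54 ± 0.28 (adjusted p = 0.000205). In that comparison the 4 genes differed in direction, since IFIT2 rose by 0.83 ± 0.22 (adjusted p = 0.00375), IFIT3 fell by 0.73 ± 0.21 (adjusted p = 0.00628), and the change of IFIT1, 0.60 ± 0.27, was not called. With Aa high for 24 h IFIT5 rose by 0.91 ± 0.16 (adjusted p = 0.000199).

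OAS1, OAS3 and OASL belong to the family of oligoadenylate synthetases, which activate the RNA-degrading enzyme RNase L, except that OASL has lost that activity and acts in RNA sensing. OAS1 and OAS3, which lie next to each other on chromosome 12, rose together in some groups and parted in others. Both were higher than their controls in Aa high 24 h, with means of 5.09 against 4.55 for OAS1 and 8.55 against 7.56 for OAS3. In Ota high 72 h the means were 5.57 against 4.78 for OAS1 and 7.68 against 5.61 for OAS3. OAS3 read 8.95, 9.18 and 9.33 with Aa high for 48 h, against 6.41, 6.90 and 6.79, a rise of 2.45 ± 0.15 (adjusted p = 9.01e-09), and the low dose raised it by 1.42 ± 0.15 (adjusted p = 9.5e-06). OAS1 changed by −0.05 ± 0.17 there and was not called. OAS1 read 5.76, 5.98 and 6.83 with Nnm high for 48 h, against 4.57, 4.64 and 4.52, a rise of 1.61 ± 0.30 (adjusted p = 0.00063), where OAS3 changed by 0.14 ± 0.20 and was not called. At 24 h Nnm high raised OAS1 by 1.34 ± 0.30 (adjusted p = 0.00182) and lowered OAS3, which fell by 0.74 ± 0.20 (adjusted p = 0.00665). The rise of OAS1 in Nnm low 24 h, 1.04 ± 0.30 (adjusted p = 0.0185), was lost with only the 6 arrays compared (0.12), without control array 1 (0.0529), without treated array 1 (0.0717), without control array 3 (0.0799) and without treated array 3 (0.145).

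OAS3 also rose with Ota for 72 h, to 7.51, 7.92 and 7.61 at the high dose, against 5.82, 4.90 and 6.12, by 2.07 ± 0.26 (adjusted p = 4.95e-06), and by 1.26 ± 0.26 (adjusted p = 0.00393) at the low dose. This set it apart in direction from most members there. The Ota controls themselves had a lower OAS3 mean at 72 h, 5.61 against 7.38 at 24 h. Treated means were 7.60 at 24 h and 7.68 at 72 h with Ota high, and 7.48 and 6.88 with Ota low. CdCl for 12 h lowered OAS3 to 6.62, 6.63 and 6.61, against 7.80, 7.80 and 7.85, a change of −1.19 ± 0.22 (adjusted p = 0.000451). Kbr high for 48 h lowered it to 5.09, 5.85 and 5.83, against 6.69, 6.64 and 6.97, a change of −1.18 ± 0.20 (adjusted p = 3.64e-05), and this call was lost with the mean of all probe sets (0.115). The rise in Ra 48 h, 1.00 ± 0.30 (adjusted p = 0.0484), was lost with a replicate block (0.0533), with no filter on low values (0.0971), with the mean of all probe sets (0.114), with only the 6 arrays compared (0.265), without control array 1 (0.189), without control array 2 (0.154), without treated array 3 (0.133) and without treated array 2 (0.0619).

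OASL rose with Nnm and Kbr, and fell with Ota low for 24 h and with Ota high for 72 h. It read 6.98, 6.54 and 7.78 with Nnm low for 48 h, against 4.58, 5.86 and 5.14, a rise of 1.91 ± 0.44 (adjusted p = 0.00591), and Nnm high raised it by 1.78 ± 0.44 (adjusted p = 0.00383) at 24 h and 1.83 ± 0.44 (adjusted p = 0.004) at 48 h. With Kbr high for 24 h it read 5.97, 7.25 and 6.58, against 4.67, 4.88 and 4.88, a rise of 1.79 ± 0.44 (adjusted p = 0.00542). In the groups shown the treated arrays lay above all controls. Ota low lowered it to 4.03, 3.57 and 4.19 at 24 h, against 5.56, 5.47 and 5.76, a change of −1.67 ± 0.31 (adjusted p = 0.0023) to a mean at background, and with Ota high for 72 h it fell by 1.36 ± 0.31 (adjusted p = 0.00137), also to background. With Ota high for 24 h its difference was 0.61 ± 0.31 (unadjusted p = 0.0701, adjusted p = 0.0994), not called. The rise in Kbr low 48 h, 1.22 ± 0.44 (adjusted p = 0.0381), was lost with no filter on low values (0.0816), without control array 1 (0.186), without treated array 1 (0.0536), without treated array 2 (0.159), without control array 3 (0.0839) and without treated array 3 (0.0504).

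ISG20, an exonuclease that degrades viral RNA, read 3.51, 4.27 and 4.01 with Ota high for 72 h, against 6.22, 6.27 and 6.48, a change of −2.39 ± 0.24 (adjusted p = 4.59e-07) to a mean at background. At the low dose it fell by 1.22 ± 0.24 (adjusted p = 0.00281). With CdCl for 48 h it read 7.54, 7.49 and 7.44, against 5.96, 5.70 and 6.04, a rise of 1.59 ± 0.16 (adjusted p = 1.2e-06). With Aa high for 48 h it read 5.30, 6.66 and 5.85, against 4.08, 4.33 and 4.46, a rise of 1.65 ± 0.32 (adjusted p = 0.000379). The treated arrays spread over more than 1 log2 unit in the Aa group and stood close together in the CdCl group, and neither overlapped its controls.

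ISG15, its ligase HERC5 and the related HERC6, the main ISG15 ligase in mouse, were called in different directions. ISG15 read 11.38, 11.74 and 11.68 with Aa high for 48 h, against 9.64, 10.43 and 10.31, a rise of 1.47 ± 0.26 (adjusted p = 0.000127), while HERC5, the main human ISG15 ligase, fell by 0.45 ± 0.18 (adjusted p = 0.0416) and HERC6 fell by 0.58 ± 0.22 (adjusted p = 0.028). Ota high for 72 h lowered ISG15 to 7.93, 8.25 and 8.53, against 9.52, 9.73 and 9.97, a change of −1.50 ± 0.20 (adjusted p = 1.06e-05), and raised HERC5 by 0.55 ± 0.10 (adjusted p = 0.000221). Ota low lowered ISG15 as well, which fell by 1.12 ± 0.20 (adjusted p = 0.00181) at 24 h and fell by 1.10 ± 0.20 (adjusted p = 0.0019) at 72 h. HERC5 read 11.41, 10.73 and 11.31 with Nnm high for 48 h, against 9.63, 10.10 and 9.77, a rise of 1.32 ± 0.22 (adjusted p = 0.000322), where the change of ISG15, −0.38 ± 0.33, was not called. HERC5 rose in all 4 Nnm groups, and its rises of 1.15 ± 0.22 (adjusted p = 0.000729) in high 24 h and 1.12 ± 0.22 (adjusted p = 0.00229) in low 48 h were lost with only the 6 arrays compared (0.0516 and 0.0527). HERC6 had no call of 2-fold, with 2 rises and 2 falls among the 26 comparisons.

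The proteins that block entry, release or replication of viruses were IFITM1, BST2 (tetherin), MX1 and IFI6. IFITM1 fell most. With Kbr high for 48 h it read 8.19, 8.64 and 8.10, against 11.47, 11.36 and 10.81, a change of −2.91 ± 0.46 (adjusted p = 1.82e-05). With Kbr low for 48 h it read 9.30, 9.54 and 8.92 against the same controls, a change of −1.96 ± 0.46 (adjusted p = 0.00263). CdCl for 48 h lowered it to 8.06, 7.97 and 7.88, against 10.03, 9.97 and 9.98, a change of −2.02 ± 0.10 (adjusted p = 9.6e-10), and Di for 48 h lowered it to 8.26, 8.50 and 8.33, a change of −1.63 ± 0.10 (adjusted p = 7.04e-09). No treated array of these groups reached the lowest of its controls. It fell by 1.05 ± 0.15 (adjusted p = 1.46e-05) with Ota high for 72 h. The fall in Kbr high 24 h, a change of −1.53 ± 0.46 (adjusted p = 0.0197), was lost without control array 1 (0.0907), without control array 2 (0.0834) and without treated array 3 (0.112), and the rise in Ra 48 h, 1.24 ± 0.36 (adjusted p = 0.0448), was lost with no filter on low values (0.0985), with only the 6 arrays compared (0.25), without control array 1 (0.0941), without control array 2 (0.187), without treated array 1 (0.0838), without treated array 3 (0.0614) and without treated array 2 (0.0628). Its neighbours IFITM2 and IFITM3, from the list of other interferon-induced genes, moved the same way in Kbr high 48 h, where IFITM2 fell by 2.51 ± 0.38 (adjusted p = 1.03e-05) and IFITM3 fell by 2.33 ± 0.37 (adjusted p = 1.65e-05).

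BST2, which ties budding virus to the cell, was called lower in 8 comparisons and higher in 0 by limma, with 1 higher at an unadjusted p under 0.05. With Ota high for 72 h it read 7.87, 8.55 and 8.05, against 10.19, 9.97 and 9.96, a change of −1.88 ± 0.18 (adjusted p = 3.57e-07), and the other 7 falls were under 2-fold. It fell in all 4 Aa groups, a change of −0.77 ± 0.16 (adjusted p = 0.000489) in high 48 h, where IRF1, IRF7 and IRF9 rose. MX1 passed the filter on low values in the Aa family only. There it did so through the Aa high arrays alone, the groups in which it was called higher. It read 4.67, 5.52 and 4.67 with Aa high for 24 h, against 2.53, 2.60 and 2.62, a rise of 2.37 ± 0.31 (adjusted p = 1.83e-05) out of background, and with Aa high for 48 h it rose by 0.97 ± 0.31 (adjusted p = 0.013), with both means at background. IFI6, a mitochondrial and endoplasmic reticulum protein, read 8.81, 8.01 and 8.33 with Aa high for 48 h, against 6.30, 6.14 and 6.30, a rise of 2.13 ± 0.20 (adjusted p = 2.79e-07). All 3 treated arrays exceeded every control by over 1 log2 unit.

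**Figure D4:**
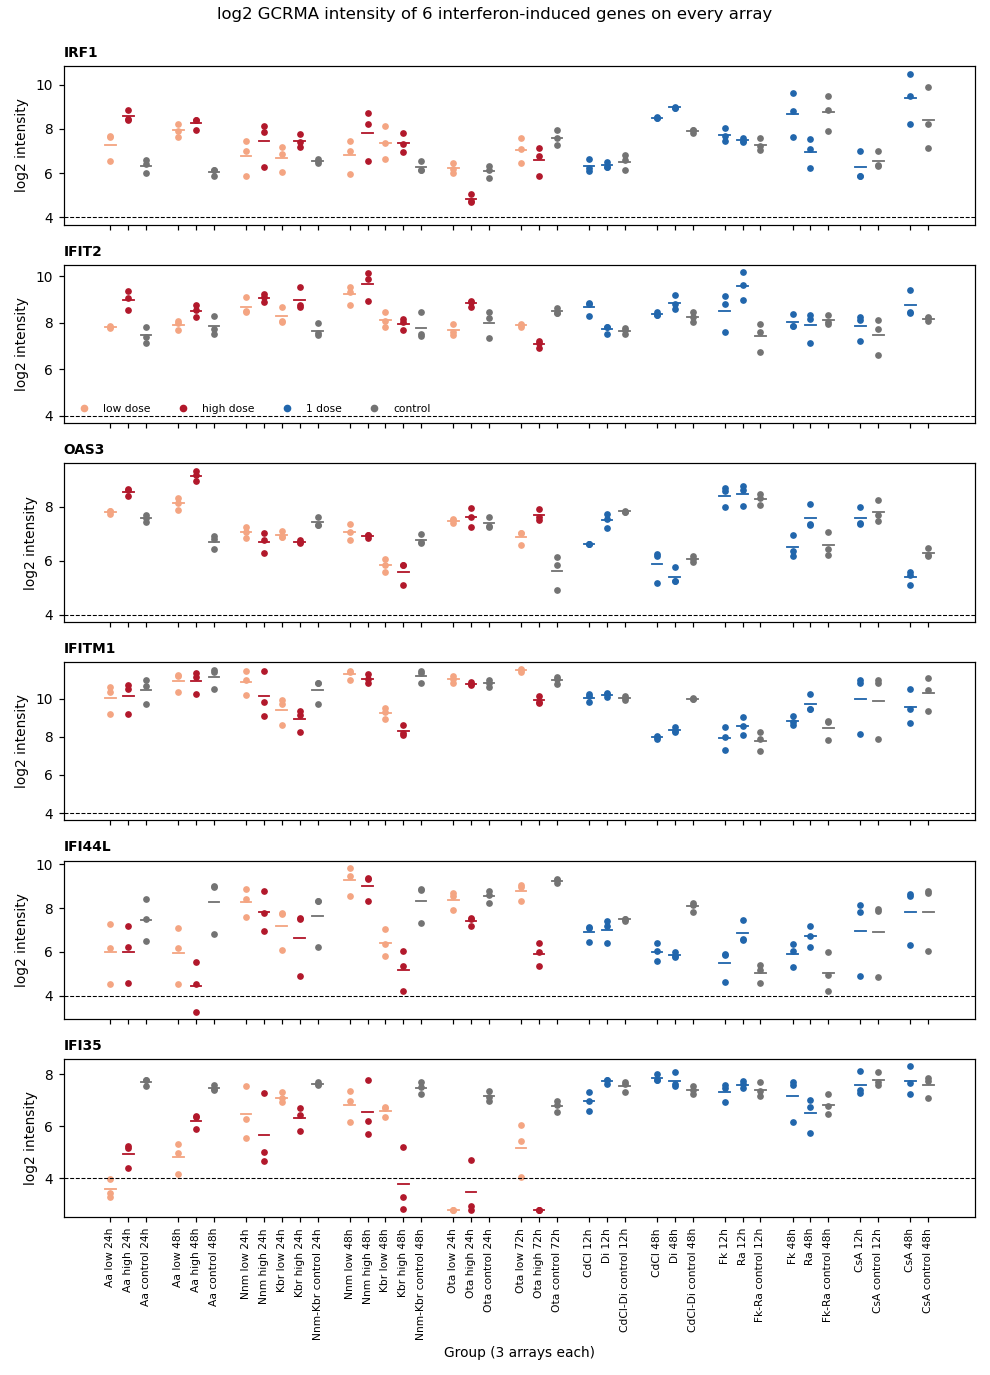
log2 GCRMA intensity (y axes) of IRF1, IFIT2, OAS3, IFITM1, IFI44L and IFI35 on all 114 arrays, with 3 points and a bar at the mean for each group, treated groups left of their controls (x axis). The dashed line marks the background level of 4. IFI35 drops below the line in Aa low 24 h, on every array of Ota low 24 h and Ota high 72 h, and on 2 of 3 arrays of Ota high at 24 h and 2 of 3 arrays of Kbr high at 48 h.

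IFI44 and IFI44L, neighbours on chromosome 1 whose proteins restrain interferon signalling, both fell with Aa high, CdCl and Di for 48 h. IFI44L read 5.53, 4.55 and 3.27 with Aa high for 48 h, against 8.96, 9.02 and 6.83, a change of −3.82 ± 0.90 (adjusted p = 0.00163). Its replicates differed by over 2 log2 units, in treated and control arrays alike, and replicate 3 was the lowest of each. With Ota high for 72 h it read 6.40, 5.37 and 6.00, against 9.31, 9.15 and 9.28, a change of −3.32 ± 0.26 (adjusted p = 3.81e-08). With Kbr high for 48 h it fell by 3.16 ± 0.72 (adjusted p = 0.000857), with CdCl for 48 h it fell by 2.07 ± 0.25 (adjusted p = 8.92e-06) and with Di for 48 h it fell by 2.22 ± 0.25 (adjusted p = 3.76e-06). IFI44L fell by 1.12 ± 0.26 (adjusted p = 0.00154) with Ota high for 24 h. The fall in Kbr low 48 h, a change of −1.94 ± 0.72 (adjusted p = 0.045), was lost with no filter on low values (0.0967), without control array 1 (0.149), without treated array 1 (0.0964), without control array 2 (0.143) and without treated array 3 (0.143), and the rise in Ra 48 h, 1.68 ± 0.46 (adjusted p = 0.0348), was lost with no filter on low values (0.0835), with only the 6 arrays compared (0.25), without control array 2 (0.157), without control array 3 (0.0519), without treated array 1 (0.0567) and without treated array 3 (0.0705).

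IFI44 read 3.93, 4.69 and 4.77 with Di for 48 h, against 6.82, 6.89 and 6.51, a change of −2.28 ± 0.24 (adjusted p = 1.68e-06). CdCl for 48 h lowered it to 5.15, 5.16 and 5.24 against the same controls, a change of −1.56 ± 0.24 (adjusted p = 8.34e-05). Both sets of treated arrays lay below all controls. IFI44 fell by 2.09 ± 0.47 (adjusted p = 0.00118) with Ota high for 24 h, and with Aa high for 48 h it fell by 1.45 ± 0.41 (adjusted p = 0.00635). The calls of its rises with Nnm for 48 h were lost in several alternatives. The rise of 1.12 ± 0.33 (adjusted p = 0.0145) at the high dose was lost with only the 6 arrays compared (0.0947), without control array 1 (0.0786), without treated array 1 (0.0802) and without control array 3 (0.0696). That of 1.01 ± 0.33 (adjusted p = 0.0405) at the low dose was lost with no filter on low values (0.0781), with only the 6 arrays compared (0.0973), without control array 1 (0.173), without treated array 1 (0.144), without treated array 2 (0.0512), without control array 3 (0.161) and without treated array 3 (0.0987).

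IFI35, a leucine-zipper protein that binds NMI, gave the largest falls of the group and was called lower in 11 of 26 comparisons and higher in 1. With Ota low for 24 h it read 2.77, 2.77 and 2.78, against 7.37, 7.12 and 6.99, a change of −4.39 ± 0.46 (adjusted p = 1.48e-05) to background. With Aa low for 24 h it read 3.29, 3.99 and 3.44, against 7.56, 7.77 and 7.80, a change of −4.14 ± 0.28 (adjusted p = 4.86e-07) to background. At the high dose for 24 h it fell by 2.79 ± 0.28 (adjusted p = 1.49e-06) with Aa and fell by 3.69 ± 0.46 (adjusted p = 3.75e-06) with Ota. With Ota high for 72 h it read 2.79, 2.78 and 2.78, against 6.97, 6.54 and 6.83, a change of −4.00 ± 0.46 (adjusted p = 1.73e-06) to background. Kbr high for 48 h lowered it to 3.27, 2.83 and 5.21, against 7.25, 7.50 and 7.70, a change of −3.71 ± 0.62 (adjusted p = 3.53e-05). The treated values of Kbr high spread over more than 2 log2 units. With Aa for 48 h it fell by 2.66 ± 0.28 (adjusted p = 8.66e-06) at the low dose and fell by 1.25 ± 0.28 (adjusted p = 0.001) at the high dose. Where a group lay at background, the size of a fall depends on the background correction.

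The IFI35 calls in Nnm high 24 h and Ota low 72 h were less steady. The fall in Nnm high 24 h, a change of −1.98 ± 0.62 (adjusted p = 0.0167), had arrays at 4.65, 7.30 and 5.03, against 7.71, 7.62 and 7.60, and was lost with only the 6 arrays compared (0.107), without treated array 1 (0.122) and without treated array 3 (0.0878). The fall in Ota low 72 h, a change of −1.60 ± 0.46 (adjusted p = 0.0259), was lost with no filter on low values (0.0674), without control array 1 (0.0866), without control array 3 (0.0801) and without treated array 3 (0.133). SAMD9, an antiviral protein that acts on translation, fell with Ota high for 24 h to 3.87, 3.80 and 3.69, against 5.82, 5.72 and 6.24, a change of −2.14 ± 0.16 (adjusted p = 2.17e-08) and to background. Its other 8 calls were under 2-fold, 4 higher and 4 lower.

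PARP9 and the ubiquitin ligase DTX3L form a complex, and the RefSeq promoter windows of both genes hold the 1 ISRE site printed above. With Aa high for 24 h PARP9 read 10.36, 10.75 and 10.56, against 8.82, 9.32 and 9.07, a rise of 1.48 ± 0.16 (adjusted p = 3.73e-06), and DTX3L read 11.40, 11.68 and 11.06, against 10.47, 10.43 and 10.37, a rise of 0.95 ± 0.15 (adjusted p = 7.3e-05). The PARP9 call was lost with the mean of all probe sets (0.0581). Both fell with Kbr high for 48 h, PARP9 to 7.19, 7.42 and 7.59, against 8.42, 8.84 and 8.88, a change of −1.31 ± 0.29 (adjusted p = 0.000594), and DTX3L fell by 0.56 ± 0.16 (adjusted p = 0.00464). They parted with Ota high for 72 h, where PARP9 rose by 1.09 ± 0.16 (adjusted p = 2.87e-05) and the DTX3L change, −0.19 ± 0.16, was not called. In Nnm high 48 h DTX3L rose by 0.48 ± 0.16 (adjusted p = 0.0267) and the PARP9 change, −0.32 ± 0.29, was not called. PARP14, an ADP-ribosyltransferase on the same chromosome, read 9.29, 9.48 and 9.02 with Aa high for 24 h, against 8.25, 8.39 and 8.00, a rise of 1.05 ± 0.16 (adjusted p = 5.73e-05). With Ota high for 24 h it read 5.51, 6.56 and 6.42, against 8.41, 8.52 and 8.00, a change of −2.14 ± 0.23 (adjusted p = 8.59e-07). It rose in all 4 Nnm groups, by 0.53 to 0.80.

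Wider lists of the pathway were read the same way. Of 14 tested genes of interferon gamma response and antigen presentation, 7 rose and 2 fell in Aa high 48 h (29.8% and 34.5% of all genes) and 1 rose and 10 fell in Kbr high 48 h (22.2% and 28.9%). In Nnm high 48 h 5 rose and 1 fell (15.4% and 12.3%), in Di 48 h 9 rose and 1 fell (21.4% and 25.9%), and in CdCl 48 h 9 rose and 3 fell (22.9% and 23.5%). TAP2, a subunit of the peptide transporter, rose by 2.52 ± 0.20 (adjusted p = 6.94e-08) in Aa high 48 h and by 2.01 ± 0.18 (adjusted p = 2.61e-07) in Di 48 h. PSMB9, a subunit of the immunoproteasome, fell by 4.20 ± 0.51 (adjusted p = 3.43e-06) in Ota high 72 h, to background, and rose by 1.33 ± 0.25 (adjusted p = 0.000638) in Nnm high 48 h. GBP2, a guanylate-binding protein, fell by 2.25 ± 0.33 (adjusted p = 7.39e-06) in Kbr high 48 h and rose by 1.41 ± 0.33 (adjusted p = 0.00351) in Nnm high 48 h. Of 9 tested genes of the receptor and signalling list 4 rose and 3 fell in Aa high 24 h (26% and 23.9% of all genes), 5 rose and 1 fell in Nnm high 48 h (15.4% and 12.3%), and 0 rose and 4 fell in Kbr high 48 h (22.2% and 28.9%). TYK2, a kinase of the type I receptor, rose by 1.84 ± 0.20 (adjusted p = 1.51e-06) in Aa high 48 h and fell by 1.89 ± 0.23 (adjusted p = 4.31e-06) in Ota high 72 h.

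Negative regulators were listed too, and of 6 tested 2 rose and 3 fell in Aa high 48 h (29.8% and 34.5% of all genes) and 2 rose and 1 fell in Kbr high 48 h (22.2% and 28.9%). SOCS1, an inhibitor of JAK kinases, rose by 1.50 ± 0.34 (adjusted p = 0.00131) in Aa high 48 h. SOCS3, its relative, fell by 1.37 ± 0.26 (adjusted p = 0.000152) in Kbr high 48 h and fell by 1.36 ± 0.10 (adjusted p = 4.76e-08) in Di 48 h. Of 25 tested other interferon-induced genes 7 rose and 2 fell in Aa high 24 h (26% and 23.9% of all genes), 9 rose and 1 fell in Nnm high 48 h (15.4% and 12.3%), and 1 rose and 9 fell in Kbr high 48 h (22.2% and 28.9%). Of these genes HELZ2 rose by 3.06 ± 0.34 (adjusted p = 1.73e-06) and SAMHD1, a nucleotide hydrolase, by 1.75 ± 0.13 (adjusted p = 4.62e-08) in Aa high 48 h. TNFSF10, the death ligand TRAIL, fell by 4.02 ± 0.13 (adjusted p = 5.03e-12) in Di 48 h and fell by 3.44 ± 0.31 (adjusted p = 1.01e-08) in Kbr high 48 h. LAMP3, a lysosomal membrane protein, fell by 3.64 ± 0.48 (adjusted p = 8.14e-06) in Ota high 72 h, to background, and rose by 2.13 ± 0.11 (adjusted p = 8.79e-10) in Di 48 h. LAMP3 exceeded log2 4 on only 22 of 114 arrays, so it may have been tested only through groups where it was high.

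Ra for 12 h held large differences that were not called. IFIT2 read 9.64, 10.18 and 8.99 with Ra, against 7.93, 7.62 and 6.74, a difference of 2.17 ± 0.42 (unadjusted p = 0.000114, adjusted p = 0.138). HERC5 read 10.66, 10.99 and 10.32, against 9.90, 9.46 and 9.44, a difference of 1.06 ± 0.22 (unadjusted p = 0.000256, adjusted p = 0.164). OASL read 5.64, 6.66 and 4.70, against 3.72, 3.39 and 3.23, a difference of 2.22 ± 0.56 (unadjusted p = 0.00122, adjusted p = 0.262). In each the Ra arrays lay above all controls, with replicate 3 the lowest. This was so for 13 of 28 members, against 17.2% of all tested genes, and 0 members lay below all controls (15.3% of all genes). The members' median difference was 0.54, against 0.02 over all genes. None passed the threshold as deposited, whereas quantile normalization called 2 (with 18 of all genes higher and 9 lower in place of 4 and 0), the fit of only the 6 arrays 5, and leaving out treated replicate 3 gave 1. Fk for 12 h, against the same controls, gave OASL values of 6.07, 6.62 and 4.70, a difference of 2.35 ± 0.56 (unadjusted p = 0.000753, adjusted p = 0.82), and a median of 0.29 over the members.

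Doses were compared directly. Aa high exceeded Aa low in 17 members at 24 h and lay below it in 0 (16.6% and 9.79% of all genes), with no lower member at an unadjusted p under 0.05 by limma. IRF7 was higher by 1.34 ± 0.18 (adjusted p = 0.000112) and IRF9 by 1.01 ± 0.11 (adjusted p = 2.03e-05). MX1, which could be tested only through its Aa high values, was higher by 2.27 ± 0.31 (adjusted p = 0.000109). IFI35, lowered by both doses, was higher at the high dose by 1.35 ± 0.28 (adjusted p = 0.00216). At 48 h the high dose exceeded the low one in 9 and lay below it in 2 (20.3% and 24.5%), with IFI6 higher by 1.82 ± 0.20 (adjusted p = 6.41e-06) and IFIT3 lower, at −0.54 ± 0.14 (adjusted p = 0.0062). The replicate block gave 6 lower in place of 2.

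Ota high exceeded Ota low in 11 members at 24 h and lay below it in 9 (19.6% and 39.4%). RSAD2 was higher by 3.26 ± 0.38 (adjusted p = 3.32e-06) and OASL by 2.28 ± 0.31 (adjusted p = 1.73e-05), and PARP14 was lower, at −2.03 ± 0.23 (adjusted p = 2.42e-06). After quantile normalization 12 were higher and 5 lower, when 3120 of all genes were higher and 3660 lower in place of 2179 and 4383. At 72 h 3 were higher and 13 lower (20.9% and 37%), with IFI44L at −2.86 ± 0.26 (adjusted p = 3.34e-07) and IRF9 at −2.26 ± 0.31 (adjusted p = 1.82e-05), and quantile normalization gave 4 higher and 10 lower.

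Kbr high and low differed in 2 members at 48 h (6.32% of all genes lower and 1.71% higher), where IFI35 was lower at the high dose, at −2.83 ± 0.62 (adjusted p = 0.00631), as was IFIH1, at −1.07 ± 0.27 (adjusted p = 0.0145). The block gave 8 lower, and after quantile normalization 1, when 214 of all genes were higher and 465 lower in place of 189 and 697. At 24 h limma called 0 members between the Kbr doses (0.00906% higher, 0.0453% lower), with 1 at an unadjusted p under 0.05. Between the Nnm doses it called 0 at 24 h and 0 at 48 h (0% of all genes each way), with 4 and 1 at that unadjusted p. The differences had wide intervals. For IFIT2 the Nnm doses differed at 48 h by 0.43 (95% interval −0.22 to 1.08), for OAS1 by 0.78 (95% interval 0.17 to 1.39) and for HERC5 by 0.20 (95% interval −0.26 to 0.66). A 2-fold difference lay within the first and second of these intervals.

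Compounds that shared controls were compared directly at the same time, in 6 pairs of groups, with the labels giving no concentrations to match them by. Nnm high lay above Kbr high in 21 of 28 members at 48 h and below it in 0 (32.5% and 24.2% of all genes), also in 0 without adjustment. IFI44L was higher by 3.84 ± 0.72 (adjusted p = 9.47e-05), IFI35 by 2.79 ± 0.62 (adjusted p = 0.000567), IFITM1 by 2.74 ± 0.46 (adjusted p = 2.62e-05) and IFIH1 by 2.32 ± 0.27 (adjusted p = 1.85e-07). At 24 h Nnm high was above in 7 and below in 2 (24.4% and 18.2%), with IFIH1 at 1.57 ± 0.27 (adjusted p = 7.25e-05) and IFIT1 at −1.02 ± 0.36 (adjusted p = 0.0236). With the replicate block 11 were higher at 24 h.

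CdCl lay above Di in 2 members and below it in 7 at 12 h (15.2% and 25.9% of all genes), and above in 8 and below in 5 at 48 h (23.6% and 19%). At 48 h ISG20 was higher with CdCl by 1.55 ± 0.16 (adjusted p = 2.49e-06) and PARP9 by 0.82 ± 0.10 (adjusted p = 9.72e-06), while DDX60 was lower, at −0.60 ± 0.21 (adjusted p = 0.0294). IFI44L, lowered by both, differed by 0.15 (95% interval −0.39 to 0.69) and was not called. Fk and Ra differed in 0 members at 12 h by limma (0% of all genes each way), with 4 at an unadjusted p under 0.05, all lower with Fk. At 48 h IRF1 was higher with Fk by 1.72 ± 0.46 (adjusted p = 0.0368) and OAS3 lower, at −1.09 ± 0.30 (adjusted p = 0.0409) (6.36% of all genes higher and 1.04% lower). After quantile normalization 1 member was higher and 3 were lower, when 657 of all genes were higher and 703 lower in place of 692 and 113.

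The response at the later time was tested against that at the earlier one as a difference of changes. In Aa high it differed for 11 of 29 members, 4 higher and 7 lower at 48 h (6.63% and 12.2% of all genes). IFIT1 had changes of −1.10 later and 0.83 earlier, a difference of −1.93 ± 0.52 (adjusted p = 0.0186), and IFIT5 had changes of −0.50 later and 0.91 earlier, a difference of −1.41 ± 0.22 (adjusted p = 0.000954). IFI6 and OAS3 went the other way, with differences of 1.66 ± 0.28 (adjusted p = 0.00152) and 1.46 ± 0.21 (adjusted p = 0.000615). The replicate block gave 17 lower in place of 7. In Aa low OAS3 alone was called, higher at 48 h (1.11% of all genes higher and 0.198% lower), and the block gave 4 higher and 2 lower.

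In Ota high 16 of 28 members differed, 5 higher and 11 lower at 72 h (32.7% and 20.6%). RSAD2 had changes of −0.48 later and 3.03 earlier, a difference of −3.52 ± 0.54 (adjusted p = 6.95e-05), and ISG20 of −2.39 later and 0.22 earlier, a difference of −2.61 ± 0.34 (adjusted p = 1.59e-05). OAS3 had changes of 2.07 later and 0.22 earlier, a difference of 1.85 ± 0.37 (adjusted p = 0.000638). Its mean was 5.61 in the later and 7.38 in the earlier controls, and 7.68 and 7.60 with Ota high. In Ota low IFI35 was the only one called, higher at 72 h (4.77% higher and 1.54% lower of all genes, with 448 and 255 genes after quantile normalization in place of 531 and 171). CdCl gave 12 higher and 5 lower at 48 h (21.1% and 9.34%). IFITM1 there had changes of −2.02 later and 0.01 earlier, a difference of −2.03 ± 0.15 (adjusted p = 6.43e-07), and SAMD9 a difference of 1.14 ± 0.23 (adjusted p = 0.00191). Di gave 3 higher and 8 lower (17.5% and 16.2%), with IFI44 at −2.28 later and 0.08 earlier, a difference of −2.36 ± 0.34 (adjusted p = 8.69e-05), and PARP14 at a difference of 1.23 ± 0.16 (adjusted p = 3.1e-05).

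**Figure D5:**
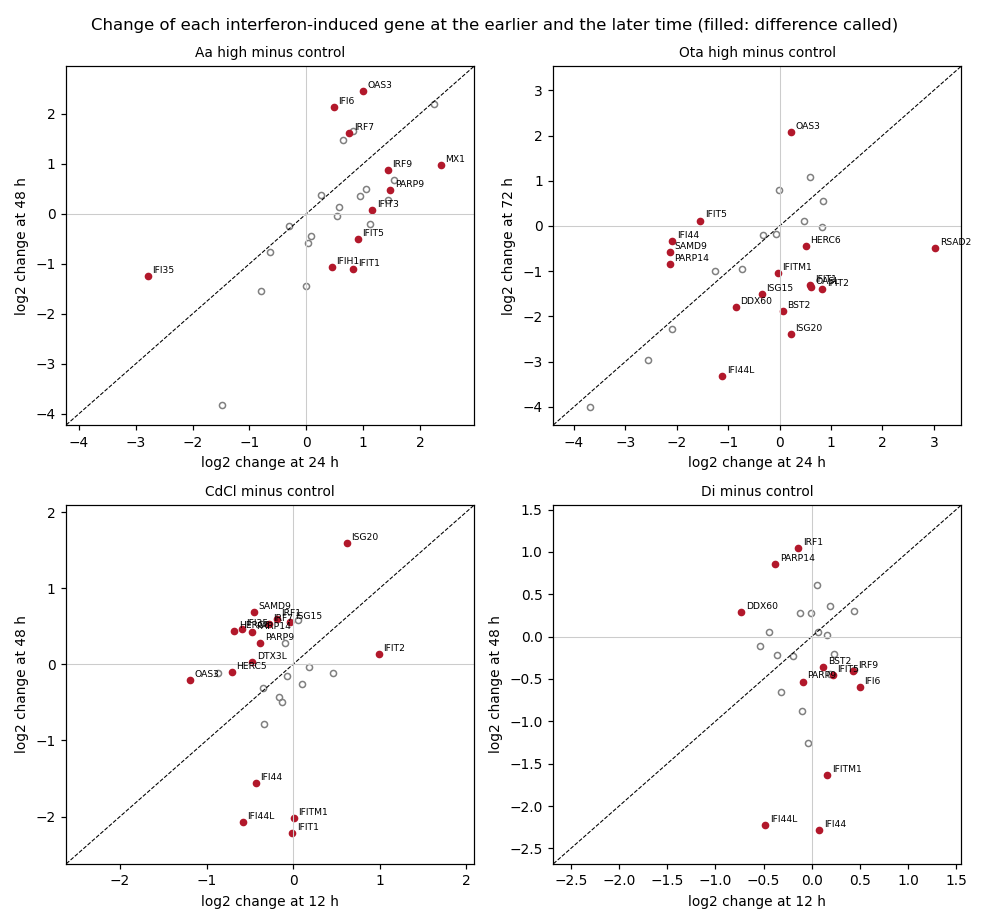
Each point is an interferon-induced gene, with its log2 change against controls at the earlier time (x axis) and the later time (y axis) for Aa high, Ota high, CdCl and Di, and the dashed line marks equal changes. Filled, named points have a called difference between the times. RSAD2 lies far right and below the line for Ota high, and IFITM1, IFI44L and IFI44 lie below it for both CdCl and Di.

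For the other groups limma called 0 members in the time comparison. For Kbr high (0.58% of all genes higher, 1.31% lower) 10 had an unadjusted p under 0.05, all lower at 48 h, and the replicate block called 4. For Nnm high (0% each way) 6 had one, and the block called 1. Kbr low (0% each way) had none, Nnm low (0%) had 2, CsA (0%) had 2 and Fk (0%) had 3. Ra (0% higher, 0.0459% lower) had 13, of which 12 were lower at 48 h. After quantile normalization 49 of all genes were higher and 71 lower in the Ra time comparison in place of 0 and 5, with 0 members called either way.

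The controls themselves changed with time in culture. OAS3 was called lower at the later time in the controls of 5 of 6 families, and in Aa, where it was the only called member, it fell by 0.86 ± 0.15 (adjusted p = 0.0145). It fell by 1.77 ± 0.26 (adjusted p = 0.000118) in the Ota controls, a change of −1.76 ± 0.22 (adjusted p = 1.08e-05) in those of CdCl and Di, a change of −1.71 ± 0.30 (adjusted p = 0.00322) in those of Fk and Ra, and fell by 1.51 ± 0.25 (adjusted p = 0.00518) in those of CsA. In the controls of Nnm and Kbr its difference was −0.65 ± 0.20 (unadjusted p = 0.00315, adjusted p = 0.125), not called. In Aa high OAS3 was above its controls at both times while those controls were lower at 48 h. IRF1 was higher at the later time in the controls of Ota, by 1.52 ± 0.31 (adjusted p = 0.00168), of CdCl and Di, by 1.42 ± 0.15 (adjusted p = 1.75e-06), and of Fk and Ra, by 1.46 ± 0.46 (adjusted p = 0.0407). ISG20 was higher at the later time in the Ota controls, by 2.14 ± 0.24 (adjusted p = 8.69e-06), so its fall in Ota high 72 h was measured against controls that had themselves moved up.

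Counts in the controls were 0 higher and 1 lower in CsA (6.89% and 6.63% of all genes), 0 and 1 in Aa (0.468% and 0.783%), and 0 and 0 in Nnm with Kbr (0.308% and 0.29%), where limma left 1 member at an unadjusted p under 0.05. They were 2 and 4 in Ota (13.6% and 15.3%), 1 and 2 in Fk with Ra (7.8% and 8.18%), and 5 and 10 in CdCl with Di (19.7% and 29.3%). The replicate block gave 4 higher and 3 lower in CsA, 2 and 2 in Aa, and 2 lower in Nnm with Kbr. Without adjustment limma gave 4 higher members in the CsA controls and 0 in the Aa controls.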

How the data were processed

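Total RNA of HK-2 cultures was measured on 114 Affymetrix arrays with 54675 probe sets. The deposited values are log2 intensities after GCRMA, per the submitters' processing notes, and were normalized together, per the series design. GCRMA versions, scan dates and a common background threshold are not given in the sources used here, and values under log2 4 were treated as background. The number of arrays per group limits the precision.

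Probe sets were named through the platform annotation, in which 41091 had 1 symbol and 1801 several, and those with several were not named. Where a gene had several probe sets, the brightest on average was used, which gave 19775 genes. The 32 members had 50 probe sets. For 16 members there was more than 1, and at 7 others with a mean of at least 4, 28 calls of 2-fold kept their direction and 2 did not.

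The tests used limma (version 3.58.1, under R 4.3.3), with 1 model per family over all its arrays, empirical Bayes moderation and Benjamini-Hochberg adjustment over all genes tested. Genes with log2 above 4 on at least 3 arrays of a family were tested, from 10806 in CsA to 11138 in Ota. The procedure was tested on simulated data. Figures and counts used Python 3.11.15, pandas 2.3.3, numpy 2.4.6, scipy 1.17.1 and matplotlib 3.10.9. Array values are given for members called with a change of 2-fold or more (log2 of 1) and not at background in both groups. Genes of the pathway lists are given by counts and by their largest called changes.

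Replicate numbers come from the labels. Deviations of same-numbered arrays from their group means correlated in every pair of groups above 0.1 in CsA (0.534 to 0.931, 6 pairs), Aa (0.28 to 0.537, 12 pairs) and Nnm with Kbr (0.139 to 0.673, 24 pairs), where the numbers were taken to pair the arrays. They did not in Ota (−0.0542 to 0.409), Fk with Ra (−0.176 to 0.76) or CdCl with Di (−0.274 to 0.16). The main tests did not use the pairing, which entered only as the replicate block among the alternatives. Alternatives were the replicate block, quantile normalization, no filter on low values, averaging a gene's probe sets, a fit of only the 6 arrays compared, and each array left out in turn. Those for doses, times, compound pairs and controls were chosen after seeing the data. The members and lists were chosen with earlier results of these data known.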

Additional observations from a re-analysis of the deposited data

Results flagged for a closer look

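These responses differed between the earlier and the later time of 1 treatment by limma's test of the difference, given as later minus earlier. In Aa high 11 members differed, among them IFIT1 (−1.93), where 6.63% of all genes differed upward and 12.2% downward. In Ota high 16 did, among them RSAD2 (−3.52), with 32.7% and 20.6% of all genes. In CdCl 17 did, with IFIT1 at −2.20 (21.1% and 9.34% of all genes), and in Di 11 did, with IFI44 at −2.36 (17.5% and 16.2%). In Aa low 1 member differed, OAS3 (1.18), with 1.11% and 0.198% of all genes, and in Ota low 1, IFI35 (2.79), with 4.77% and 1.54%. Both times of a treatment were measured against their own controls, and OAS3 was itself lower in the Aa controls at 48 h.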

How the results depend on the processing

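The 113 calls of 2-fold or more named in 27 members were recomputed under each alternative, and none changed direction. Of these 82 were called in every alternative. Leaving out an array ended 79 of 678 calls, the fit of only the 6 arrays 18 of 113, no filter 12, the mean of all probe sets 5, and quantile normalization and the replicate block 1 each. The cause of a lost call was not tested, though leaving out arrays or the filter leaves fewer arrays or adds genes to the adjustment. GCRMA values near background limit the size of falls, and 3 arrays a group limit all counts. The moved counts below lack the share of all genes called in the same fit, so they cannot be set against all genes.

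With the replicate block, which pairs cultures only in CsA, Aa and Nnm with Kbr, counts of called members that moved were 1 higher in place of 0 and 1 lower in place of 0 for CsA 48 h, 5 lower in place of 2 for Aa high 24 h, 5 lower in place of 2 for Kbr high 24 h, 6 lower in place of 3 for Aa low 24 h, 2 higher in place of 0 and 1 lower in place of 0 for Kbr low 24 h, 11 higher in place of 5 for Nnm low 24 h, 2 higher in place of 1 for Kbr high 48 h, 7 lower in place of 3 for Aa low 48 h, 6 lower in place of 3 for Kbr low 48 h, 14 higher in place of 9 for Nnm low 48 h, 2 lower in place of 1 for Ra 48 h, 1 lower in place of 4 for Di 12 h, 6 lower in place of 2 for Aa high against low 48 h, 8 lower in place of 2 for Kbr high against low 48 h, 17 lower in place of 7 for Aa high response 48 against 24 h, 4 lower in place of 0 for Kbr high response 48 against 24 h, 1 higher in place of 0 for Nnm high response 48 against 24 h, 4 higher in place of 1 and 2 lower in place of 0 for Aa low response 48 against 24 h, 1 lower in place of 0 for Ota low response 72 against 24 h, 1 lower in place of 0 for Ra response 48 against 12 h, 11 higher in place of 7 for Nnm high against Kbr high 24 h, 4 higher in place of 0 and 3 lower in place of 1 for CsA control 48 against 12 h, 2 higher in place of 0 and 2 lower in place of 1 for Aa control 48 against 24 h, 2 lower in place of 0 for Nnm-Kbr control 48 against 24 h, 4 higher in place of 2 for Ota control 72 against 24 h. With only the 6 arrays compared they were 4 lower in place of 2 for Kbr high 24 h, 3 higher in place of 10 and 0 lower in place of 3 for Nnm high 24 h, 3 higher in place of 5 and 1 lower in place of 3 for Aa low 24 h, 1 higher in place of 0 for Kbr low 24 h, 2 higher in place of 1 for Kbr high 48 h, 3 higher in place of 13 for Nnm high 48 h, 5 lower in place of 3 for Kbr low 48 h, 2 higher in place of 9 for Nnm low 48 h, 4 higher in place of 7 for Ota high 24 h, 6 lower in place of 3 for Ota low 72 h, 5 higher in place of 0 for Ra 12 h, 0 higher in place of 3 and 0 lower in place of 1 for Ra 48 h, 0 higher in place of 1 and 0 lower in place of 4 for Di 12 h, 5 higher in place of 3 for Di 48 h. With no filter on low values they were 1 lower in place of 3 for Aa low 24 h, 1 higher in place of 2 for Kbr low 48 h, 3 lower in place of 5 for Ota low 24 h, 0 higher in place of 3 and 0 lower in place of 1 for Ra 48 h, 0 higher in place of 1 and 0 lower in place of 4 for Di 12 h, 1 lower in place of 2 for Aa high against low 48 h, 1 lower in place of 2 for Nnm high against Kbr high 24 h, 0 higher in place of 1 and 0 lower in place of 1 for Fk against Ra 48 h, 5 higher in place of 8 and 3 lower in place of 5 for CdCl against Di 48 h, 0 higher in place of 1 and 1 lower in place of 2 for Fk-Ra control 48 against 12 h. With quantile normalization they were 5 lower in place of 3 for Kbr low 48 h, 1 higher in place of 0 for Ota low 24 h, 2 higher in place of 0 for Ra 12 h, 3 higher in place of 1 and 2 lower in place of 4 for Di 12 h, 1 lower in place of 2 for Aa high against low 48 h, 1 lower in place of 2 for Kbr high against low 48 h, 5 lower in place of 9 for Ota high against low 24 h, 1 lower in place of 0 for Nnm high against Kbr high 48 h, 3 lower in place of 1 for Fk against Ra 48 h. With the mean of all probe sets they were 1 lower in place of 2 for Kbr high 24 h, 0 higher in place of 1 for Kbr high 48 h, 1 higher in place of 2 for Kbr low 48 h, 2 lower in place of 4 for Di 12 h, 1 lower in place of 0 for Ota low response 72 against 24 h, 0 lower in place of 1 for Fk against Ra 48 h, 0 higher in place of 1 for Fk-Ra control 48 against 12 h. With each array left out in turn the counts ran over 1 to 2 lower for Kbr high 24 h, 0 to 5 lower for Nnm high 24 h, 1 to 5 higher and 1 to 3 lower for Aa low 24 h, 3 to 8 higher for Nnm low 24 h, 0 to 2 higher for Kbr high 48 h, 6 to 13 higher and 0 to 1 lower for Nnm high 48 h, 2 to 5 lower for Aa low 48 h, 0 to 3 higher for Kbr low 48 h, 4 to 11 higher for Nnm low 48 h, 3 to 4 lower for Ota low 24 h, 0 to 1 higher for Ra 12 h, 0 to 3 higher and 0 to 3 lower for Ra 48 h, 0 to 2 higher and 0 to 2 lower for Di 12 h.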
